A study of Mus musculus with 9 samples.

Results

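The unfolded protein response and the integrated stress response were followed through 40 genes in 9 mouse tumours. The genes are named members of these pathways, taken by gene name, in a list drawn up with earlier results of these data known. All 40 were found among the 34745 genes of the count table, with 1 row each. They were kept in 3 arms, named after the transcription factors ATF4 (19 genes), XBP1 (8 genes) and ATF6 (13 genes). All 40 passed the filter on low counts, and the smallest count of any of them in any tumour was 27, for Chac1.

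The tumours were grown under the skin of male wild-type C57BL/6 mice from LLC cells, a mouse lung carcinoma line of that strain, and mice were randomised when tumours were near 100 mm3. One group of 3 received bortezomib (BTZ, 0.5 mg/kg), an inhibitor of the proteasome, together with an antibody against PDL1 (10 mg/kg), and is called BTZ+anti-PDL1. A second group of 3 received the antibody against PDL1 alone (10 mg/kg, anti-PDL1), and the control group of 3 received an isotype antibody (10 mg/kg, isotype), although the titles of those libraries say blank. Every mouse thus carried the same cell line and received an antibody, and no group here received BTZ alone. The labels give neither the dosing schedule nor the time of sampling. Each pair of comparisons shares a group of 3 tumours, so the 3 comparisons are not independent of each other.

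In the unfolded protein response, sensors in the membrane of the endoplasmic reticulum (ER) react to unfolded protein in the ER lumen. The sensor IRE1 splices the Xbp1 messenger RNA, which then encodes an active transcription factor, and ATF6 is cut in the Golgi to release one. The sensor PERK phosphorylates the initiation factor eIF2alpha, a step it shares with GCN2, the sensor of amino acid shortage. That phosphorylation lowers general translation and raises translation of Atf4, whose protein drives genes for amino acid supply and for recovery. Proteins that fail to fold in the ER are normally sent to the proteasome, and proteasome inhibitors are known to induce both responses in cultured cells. Gene counts report total messenger RNA, so Atf4 translation, Xbp1 splicing and ATF6 cleavage were not measured. ATF6 and XBP1 also share many targets, so the split of the ER chaperones between these 2 arms is by convention.

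The libraries held 18.52 M to 21.51 M counts (M, mega). Skeletal muscle genes differed most between tumours. The summed level of the 15 muscle markers ran from 80.8 to 1033 CPM (read counts normalised for depth, scaled by TMM) in BTZ+anti-PDL1, from 195 to 1290 CPM in anti-PDL1 and from 86.5 to 3273 CPM in isotype tumours. BTZ+anti-PDL1 replicate 1, anti-PDL1 replicate 1 and isotype replicate 3 were the muscle-richest of their groups, and arm counts are given again without them. Isotype replicate 2 stood apart in T cells, with 8.07 CPM over 15 markers, against 35.5 to 55.9 CPM in BTZ+anti-PDL1, 36.1 to 44.7 CPM in anti-PDL1, and 30.0 and 42.6 CPM in the other isotype tumours. The cells are labelled lung adenocarcinoma. The alveolar markers Nkx2-1, Sftpb and Sftpc had no count in any tumour, where a count of 3 would be at most 0.162 CPM, and the epithelial marker Epcam reached 0.247 CPM at most. Other epithelial or lung markers had counts in every tumour, with 56.6 to 113 CPM for Krt18, 3.64 to 26.6 CPM for Krt8, 1.44 to 9.30 CPM for Cdh1 and 4.16 to 8.96 CPM for Napsa, and the mesenchymal marker Vim had 2201 to 2840 CPM. The markers thus pointed both ways, and the samples are called LLC tumours here.

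Response elements in the promoters were counted for each arm. RefSeq windows (build GRCm38.p6, 250 bases before to 50 bases after the start of transcription) were matched to 36 of the 40 genes (all but Manf, Hyou1, Atf6 and Ppp1r15b), and both strands were searched for 4 published response elements. The ER stress response element (ERSE, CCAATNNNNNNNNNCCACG) was found in 0.119% of 32851 windows of all genes. It was found for 5 of 10 matched genes of the ATF6 arm, 3 of 8 of the XBP1 arm and 0 of 18 of the ATF4 arm. The matches are shown because these counts rest on them, with the fixed bases in capitals and each sequence written in the direction of the element.
Hspa5: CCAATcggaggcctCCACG
Hsp90b1, upstream match: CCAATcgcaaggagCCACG
Hsp90b1, downstream match: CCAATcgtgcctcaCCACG
Calr: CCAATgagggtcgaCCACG
Canx: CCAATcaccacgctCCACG
Creld2: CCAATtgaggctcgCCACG
Pdia6: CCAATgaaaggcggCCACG
Dnajc3: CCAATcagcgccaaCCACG
Syvn1: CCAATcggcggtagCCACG

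These matches began 65 bases before the start in Hspa5, 212 and 107 in Hsp90b1, 162 in Calr, 145 in Canx, 126 in Creld2, 98 in Pdia6, 105 in Dnajc3 and 44 in Syvn1. The variant ERSE-II, which is ATTGG and CCACG with any 1 base between them, was in 0.0365% of windows and was found in Herpud1, 52 bases before the start, and in Dnajb11, from base 7 after it. The XBP1 element, searched only as the exact letters TGACGTGG, was in 0.676% of windows and was found in 0 of the 36 genes. Forms of it with other letters were not searched. The element bound by ATF4 with its C/EBP partners (CARE, TGATGNAA), in 3.97% of windows, was found for 5 of 18 genes of the ATF4 arm and for Herpud1 of the ATF6 arm. These are printed with 6 bases on each side, so that the neighbouring sequence can be compared, and again with the fixed bases in capitals.
Asns: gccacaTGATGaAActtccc
Atf3: acttggTGATGcAAgtgcga
Chac1: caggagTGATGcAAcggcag
Nupr1: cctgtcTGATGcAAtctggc
Trib3: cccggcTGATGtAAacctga
Herpud1: gcgggcTGATGcAAcccgcc

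A match to these letters describes the window, and binding was not measured. Members and elements were both taken from what is known of these pathways, so the shares are no separate support for the arms. The share over all genes counts windows, while members are counted by gene, with 39 windows for the 36 genes. The whole windows of Hspa5 (chr2:34771840-34772139, plus strand), Herpud1 (chr8:94386179-94386478, plus strand) and Asns (chr6:7693160-7693459, minus strand) are given because they show the ERSE alone, ERSE-II with CARE, and CARE alone. Matches are in capitals, on the gene's strand.
Hspa5: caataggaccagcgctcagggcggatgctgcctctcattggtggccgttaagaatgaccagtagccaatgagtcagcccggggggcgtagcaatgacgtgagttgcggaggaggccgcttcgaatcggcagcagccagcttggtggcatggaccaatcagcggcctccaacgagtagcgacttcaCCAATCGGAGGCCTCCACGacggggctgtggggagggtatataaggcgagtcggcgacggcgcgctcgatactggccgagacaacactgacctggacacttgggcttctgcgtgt
Herpud1: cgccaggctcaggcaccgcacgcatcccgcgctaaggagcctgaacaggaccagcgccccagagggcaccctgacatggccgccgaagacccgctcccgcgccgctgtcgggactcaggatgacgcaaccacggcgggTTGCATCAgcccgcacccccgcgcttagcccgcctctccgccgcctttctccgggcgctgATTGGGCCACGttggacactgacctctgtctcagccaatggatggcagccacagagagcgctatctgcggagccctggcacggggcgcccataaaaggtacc
Asns: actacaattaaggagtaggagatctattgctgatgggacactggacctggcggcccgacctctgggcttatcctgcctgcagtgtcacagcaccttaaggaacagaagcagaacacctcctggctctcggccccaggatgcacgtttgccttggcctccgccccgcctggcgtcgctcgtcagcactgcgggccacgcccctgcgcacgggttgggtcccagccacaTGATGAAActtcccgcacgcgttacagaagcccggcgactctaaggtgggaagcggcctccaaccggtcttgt

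Levels per length spanned a wide range. Over the 9 tumours the level averaged 273 FPKM (a value per length and per depth) for Hsp90b1, the ER form of the Hsp90 chaperone, and 231 FPKM for Calr, a lectin chaperone that also buffers calcium. They were the highest of the 40. Atf4 and the disulfide isomerase Pdia3 each averaged 196 FPKM, Pdia6 177 FPKM, Shmt2 143 FPKM and Pdia4 141 FPKM, and Hspa5 (BiP), the main ER chaperone, averaged 122 FPKM. At the low end were the glutathione-degrading enzyme Chac1 at 1.61 FPKM, the pseudokinase Trib3 at 2.78 FPKM and Ddit3 (CHOP), a transcription factor tied to cell death under stress, at 5.46 FPKM. Most of the genes varied little, the highest tumour being under 1.5-fold the lowest for 25 of 40. The ratio exceeded 2-fold for 4 genes, which were Atf3 (4.55-fold), Chac1 (3.01-fold), Hspa5 (2.46-fold) and Ppp1r15a (2.10-fold). Within groups the median coefficient of variation of the 40 genes was 8.73% in BTZ+anti-PDL1, 7.92% in anti-PDL1 and 8.92% in isotype tumours.

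No member passed the test in any comparison. By edgeR's quasi-likelihood test with Benjamini-Hochberg adjustment over 14506 genes, 0 of 40 were called in BTZ+anti-PDL1 against anti-PDL1 (0.0138% of all genes were called), 0 in BTZ+anti-PDL1 against isotype (0.00689%) and 0 in anti-PDL1 against isotype (0.0138%). By DESeq2 the counts were 0, 2 and 0 in that order, beside 0.47%, 0.768% and 0.104% of all genes. The 2 were Ppp1r15a (adjusted p = 0.0161) and Atf4 (adjusted p = 0.0423), both lower in BTZ+anti-PDL1 than in isotype tumours. At an unadjusted p under 0.05, edgeR had 2 genes higher and 0 lower in BTZ+anti-PDL1 against anti-PDL1, where 3.15% of all genes were higher and 2.67% lower. It had 8 lower and 0 higher in BTZ+anti-PDL1 against isotype (4.18% and 4.42% of all genes), and 6 lower and 0 higher in anti-PDL1 against isotype (3.34% and 3.01%). All 8 of the BTZ+anti-PDL1 against isotype comparison were in the ATF4 arm.

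The members were at their highest in an isotype tumour more often than in a treated one. The highest of the 9 values was in a BTZ+anti-PDL1 tumour for 9 genes, in an anti-PDL1 tumour for 5 and in an isotype tumour for 26. The lowest value was in an anti-PDL1 tumour for 21 genes, 13 of them in anti-PDL1 replicate 1, in a BTZ+anti-PDL1 tumour for 9 and in an isotype tumour for 10. The same counts were not made over all genes, so whether they are particular to the members was not tested. In the heat map of the members the isotype columns are mostly on the high side in the ATF4 block, and anti-PDL1 replicate 1 is the column most often at the low end.

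**Figure D1:**
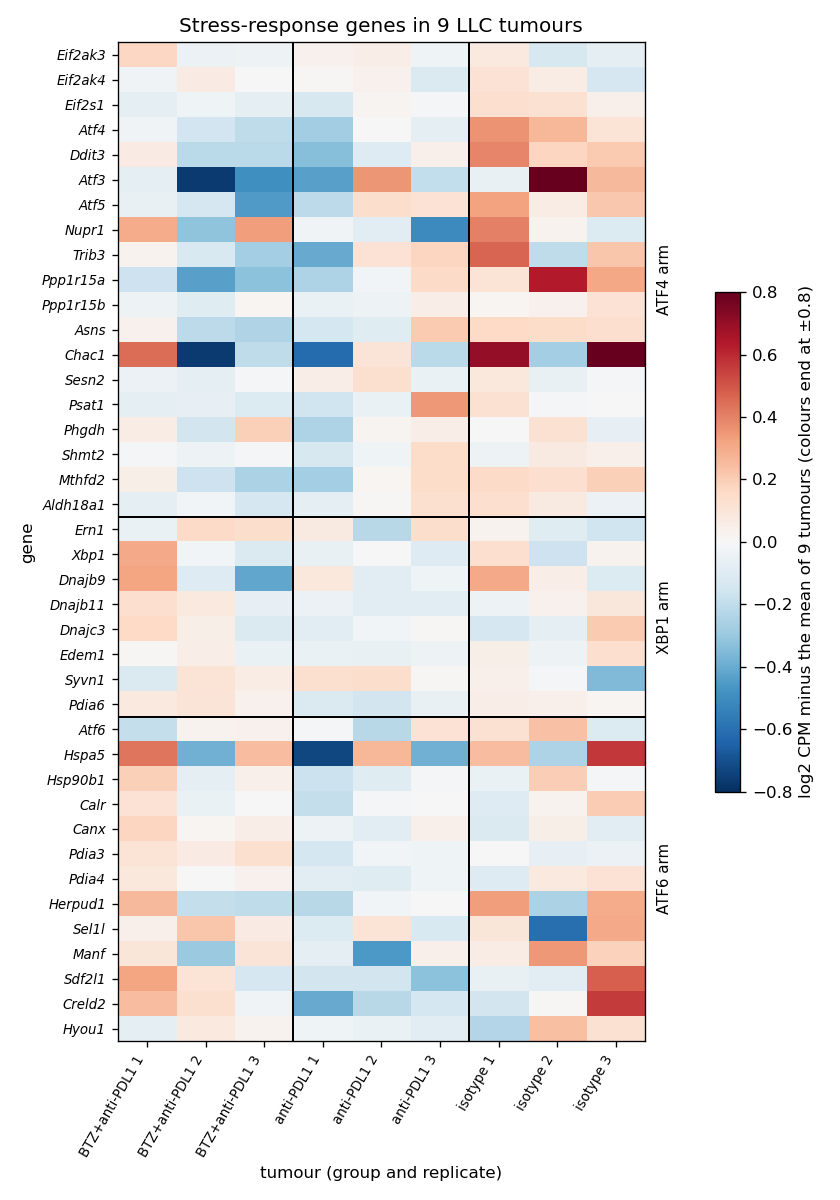
Heat map of the 40 genes (rows, by arm) in the 9 tumours (columns, BTZ+anti-PDL1, anti-PDL1, isotype), coloured by log2 CPM centred on each gene's average over the 9 tumours. In the ATF4 block the highest value is in an isotype tumour for 13 of 19 genes, and in the ATF6 block for 11 of 13. These counts were not made over all genes.

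Most genes of the ATF4 arm had lower values in both treated groups than in isotype tumours, by small amounts, and none passed the edgeR test. Of 19 genes, 16 in BTZ+anti-PDL1 against isotype had a log2 fold change below 0, with a median of -0.16 (range -1.10 to 0.07), where 50.3% of all genes were below 0 with a median of -0.001. The groups did not overlap for 10 of the 19, all lower, where 6.03% of all genes were lower without overlap. In anti-PDL1 against isotype, 16 of 19 were below 0, with a median of -0.14 (range -0.74 to 0.06), where 51% of all genes were below 0 with a median of -0.003. Here 3 genes were lower without overlap (6.61% of all genes) and 0 higher (6.08%). Between BTZ+anti-PDL1 and anti-PDL1, 13 of 19 were below 0, with a median of -0.02 (range -0.36 to 0.33), against 49.2% of all genes and a median of 0.003, and 0 had an unadjusted p under 0.05. In this comparison 0 genes of the arm were apart without overlap, where 7.33% of all genes were higher and 6.99% lower without overlap. In whole tumour pieces, fewer cells of a type and less RNA per cell cannot be told apart.

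Without the muscle-richest tumour of each group, 19 of 19 genes were below 0 in BTZ+anti-PDL1 against isotype (median -0.18), 15 of 19 in anti-PDL1 against isotype (median -0.07) and 17 of 19 in BTZ+anti-PDL1 against anti-PDL1 (median -0.15). Without anti-PDL1 replicate 1 alone, the median in anti-PDL1 against isotype was -0.07 with 13 of 19 below 0, and in BTZ+anti-PDL1 against anti-PDL1 it was -0.09 with 15 of 19. Without BTZ+anti-PDL1 replicate 1 it was also -0.09 against anti-PDL1, with 16 of 19 below 0. Without anti-PDL1 replicate 3 the median of BTZ+anti-PDL1 against anti-PDL1 was 0.005, with 10 of 19 above 0.

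Among the sensors, the PERK gene Eif2ak3 had 50.7, 43.7 and 43.9 CPM in BTZ+anti-PDL1, 46.2, 46.8 and 44.1 CPM in anti-PDL1, and 47.6, 41.3 and 42.7 CPM in isotype tumours. The GCN2 gene Eif2ak4 had 65.0, 69.4 and 66.2 CPM in BTZ+anti-PDL1, 66.8, 67.9 and 61.2 CPM in anti-PDL1, and 71.8, 69.1 and 60.5 CPM in isotype tumours. The ranges of all 3 groups overlapped for both kinase genes. Eif2s1, which encodes eIF2alpha, the target of these kinases, had 226, 233 and 226 CPM in BTZ+anti-PDL1, 218, 242 and 237 CPM in anti-PDL1, and 261, 259 and 245 CPM in isotype tumours. Both treated groups were below every isotype tumour, and the log2 fold change was -0.13 ± 0.063 in anti-PDL1 against isotype (SE, edgeR adjusted p = 0.763).

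Atf4 (ENSMUSG00000042406, chromosome 15, 80255184 to 80257540, build mm10), the factor that gives the arm its name, had 328, 301 and 291 CPM in BTZ+anti-PDL1, 276, 335 and 318 CPM in anti-PDL1, and 429.6, 402 and 361 CPM in isotype tumours. Every treated tumour was below every isotype tumour, and the treated groups overlapped each other. Its mean was 307 ± 19.0 CPM in BTZ+anti-PDL1, 309.8 ± 30.7 CPM in anti-PDL1 and 398 ± 34.5 CPM in isotype tumours (SD, n = 3 each). The log2 fold change was -0.37 ± 0.0951 in BTZ+anti-PDL1 against isotype (0.77-fold, 95% interval 0.67 to 0.89, edgeR adjusted p = 0.395). Anti-PDL1 against isotype gave -0.36 ± 0.095 (0.78-fold, 95% interval 0.67 to 0.90, edgeR adjusted p = 0.763). Between BTZ+anti-PDL1 and anti-PDL1 it was -0.01 ± 0.095, and the interval allowed 0.85-fold to 1.15-fold (edgeR adjusted p = 0.992). An increase in Atf4 messenger RNA of more than 1.15-fold with the addition of BTZ thus lay outside the interval, while translation of that messenger was not measured.

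Ddit3 (CHOP) had 13.0, 10.7 and 10.7 CPM in BTZ+anti-PDL1, 9.80, 11.6 and 12.8 CPM in anti-PDL1, and 16.3, 14.0 and 14.4 CPM in isotype tumours. Its pattern was that of Atf4, with all 6 treated tumours below the isotype ones. The log2 fold change was -0.37 ± 0.139 in BTZ+anti-PDL1 against isotype (edgeR adjusted p = 0.543) and 0.01 ± 0.139 in BTZ+anti-PDL1 against anti-PDL1 (0.81-fold to 1.25-fold, adjusted p = 0.993). It was -0.39 ± 0.139 in anti-PDL1 against isotype (edgeR adjusted p = 0.763). Ddit3 shares exon bases with Mars on the opposite strand, a gene at 25.2 FPKM, and the strand setting of the counting was not given, so its count may hold reads of that gene.

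Ppp1r15a (GADD34, ENSMUSG00000040435, chromosome 7, 45522916 to 45526268), the inducible subunit of the phosphatase that reverses eIF2alpha phosphorylation, had 27.4, 22.7 and 24.5 CPM in BTZ+anti-PDL1, 25.9, 30.2 and 34.1 CPM in anti-PDL1, and 33.1, 47.7 and 38.0 CPM in isotype tumours. BTZ+anti-PDL1 tumours were all below the isotype tumours, and anti-PDL1 tumours lay between them with overlap on both sides. It had the smallest p of the 40 genes, with a log2 fold change of -0.67 ± 0.151 in BTZ+anti-PDL1 against isotype (0.63-fold, 95% interval 0.50 to 0.80, edgeR adjusted p = 0.311). The log2 fold change was -0.27 ± 0.151 in BTZ+anti-PDL1 against anti-PDL1 (edgeR adjusted p = 0.886) and -0.40 ± 0.15 in anti-PDL1 against isotype (adjusted p = 0.763), and without isotype replicate 2 the last was -0.23. The constitutive subunit Ppp1r15b had 194, 187 and 202 CPM in BTZ+anti-PDL1, 193, 194 and 207 CPM in anti-PDL1, and 202, 205 and 217 CPM in isotype tumours.

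Atf3, an early stress-induced repressor, had 16.9, 10.5 and 12.7 CPM in BTZ+anti-PDL1, 13.2, 22.8 and 15.6 CPM in anti-PDL1, and 17.1, 47.6 and 21.4 CPM in isotype tumours. Isotype replicate 2 alone was above 40 CPM. Its log2 fold change in BTZ+anti-PDL1 against isotype was -1.10 ± 0.406 (edgeR adjusted p = 0.543) with all tumours and -0.52 without isotype replicate 2. Atf5, a related factor that supports the mitochondrial stress response, had 50.2, 47.7 and 38.2 CPM in BTZ+anti-PDL1, 45.3, 57.6 and 56.6 CPM in anti-PDL1, and 65.5, 54.6 and 60.6 CPM in isotype tumours. Its BTZ+anti-PDL1 values were all below the isotype values, at a log2 fold change of -0.41 ± 0.13 (edgeR adjusted p = 0.52), and against anti-PDL1 it was -0.23 ± 0.13 (adjusted p = 0.886). Atf5 shares exon bases with Il4i1 (14.2 FPKM) on the opposite strand.

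Nupr1, a small chromatin protein induced by stress, was the ATF4-arm gene with the highest fold change in BTZ+anti-PDL1 against anti-PDL1. It had 37.0, 24.1 and 38.1 CPM in BTZ+anti-PDL1, 29.6, 28.4 and 21.2 CPM in anti-PDL1, and 39.8, 30.7 and 27.9 CPM in isotype tumours. BTZ+anti-PDL1 replicate 2 was inside the anti-PDL1 range, and the log2 fold change of 0.33 ± 0.209 did not pass (edgeR adjusted p = 0.886). Trib3, which binds and restrains ATF4 and CHOP, had 8.86, 7.96 and 7.18 CPM in BTZ+anti-PDL1, 6.55, 9.39 and 9.79 CPM in anti-PDL1, and 12.0, 7.52 and 10.1 CPM in isotype tumours. Chac1 had 3.35, 1.44 and 2.13 CPM in BTZ+anti-PDL1, 1.60, 2.64 and 2.11 CPM in anti-PDL1, and 3.99, 2.03 and 4.34 CPM in isotype tumours. The ranges of the 3 groups overlapped for both genes. Sesn2, an inhibitor of mTORC1 signalling under amino acid shortage, had between 43.5 and 50.1 CPM in all 9 tumours.

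Among the metabolic targets, Asns, which makes asparagine, had 112, 94.6 and 92.2 CPM in BTZ+anti-PDL1, 99.2, 102 and 126 CPM in anti-PDL1, and 122, 121 and 119.6 CPM in isotype tumours. All BTZ+anti-PDL1 tumours were below the isotype tumours, while anti-PDL1 replicate 3 was the highest of the 9. For Asns the log2 fold change in BTZ+anti-PDL1 against isotype was -0.28 ± 0.105 (edgeR adjusted p = 0.543). Mthfd2, of the mitochondrial folate cycle, had 88.9, 77.0 and 72.5 CPM in BTZ+anti-PDL1, 71.4, 87.3 and 95.5 CPM in anti-PDL1, and 95.8, 94.6 and 98.4 CPM in isotype tumours. Its order was that of Asns, with BTZ+anti-PDL1 below isotype and anti-PDL1 overlapping each of those groups. Aldh18a1, which makes the precursor of proline, had 168, 174 and 161 CPM in BTZ+anti-PDL1 against 168, 178 and 193 CPM in anti-PDL1 tumours, at a log2 fold change of -0.10 ± 0.0752 (edgeR adjusted p = 0.886).

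Psat1, an enzyme of serine synthesis, had 158, 159 and 154 CPM in BTZ+anti-PDL1, 149, 160.1 and 211 CPM in anti-PDL1, and 181, 164 and 166 CPM in isotype tumours. Phgdh, which catalyses the first step of that pathway, had 157, 136 and 172 CPM in BTZ+anti-PDL1, 127, 153 and 156 CPM in anti-PDL1, and 149.9, 164 and 144 CPM in isotype tumours. Shmt2, which moves the one-carbon unit of serine into the mitochondrial folate pool, had between 302 and 366 CPM. The Psat1 values of BTZ+anti-PDL1 were all below those of isotype tumours, and the groups overlapped for Phgdh. The plot of levels by tumour shows Atf4, Ddit3, Ppp1r15a and Asns beside 4 genes of the other arms.

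**Figure D2:**
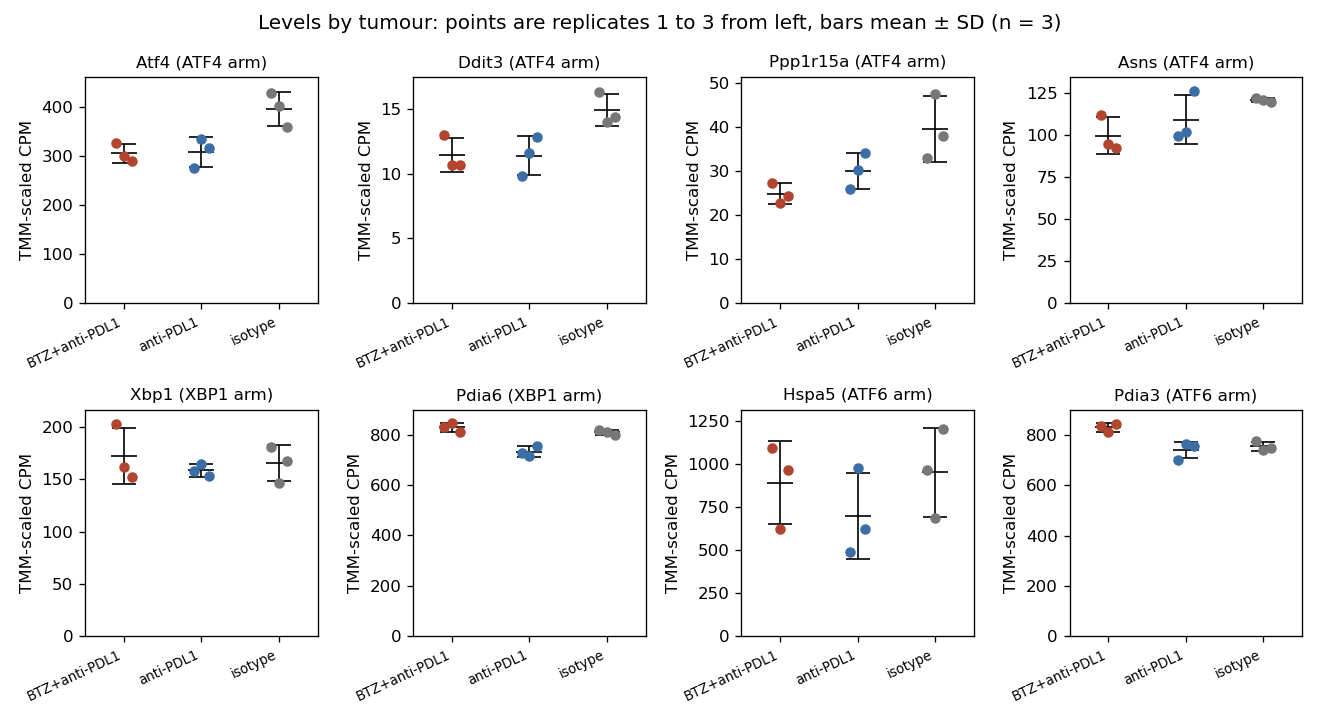
TMM-scaled CPM of 8 genes in each tumour (points, replicates 1 to 3 from the left) with mean ± SD (bars, n = 3), for BTZ+anti-PDL1, anti-PDL1 and isotype. Atf4 is at 291 to 328 CPM in BTZ+anti-PDL1, 276 to 335 CPM in anti-PDL1 and 361 to 429.6 CPM in isotype tumours, while Hspa5 spreads widely in every group.

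The XBP1 arm had log2 fold changes between -0.14 and 0.19 in all 3 comparisons. Of 8 genes, 6 were above 0 in BTZ+anti-PDL1 against anti-PDL1, with a median log2 fold change of 0.07 (range -0.07 to 0.18), where 50.8% of all genes were above 0. Again 6 of 8 were above 0 in BTZ+anti-PDL1 against isotype, with a median of 0.03 (range -0.13 to 0.16, 49.7% of all genes above 0). In anti-PDL1 against isotype 6 of 8 were below 0, with a median of -0.08 (range -0.14 to 0.19, 49% of all genes above 0). Without the muscle-richest tumours the counts were 5 of 8 above 0, 5 of 8 above 0 and 5 of 8 below 0 in that order, with medians of 0.03, 0.02 and -0.05. Without BTZ+anti-PDL1 replicate 1 the median against isotype was -0.03.

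The sensor gene Ern1 (IRE1) had 125, 144 and 143 CPM in BTZ+anti-PDL1, 136, 111 and 143 CPM in anti-PDL1, and 132, 121 and 116 CPM in isotype tumours, at a log2 fold change of 0.16 ± 0.103 in BTZ+anti-PDL1 against isotype (edgeR adjusted p = 0.684). Xbp1 had 203, 162 and 152 CPM in BTZ+anti-PDL1, 158, 165 and 153 CPM in anti-PDL1, and 181, 147 and 168 CPM in isotype tumours. BTZ+anti-PDL1 replicate 1 was the highest of the 9, while replicate 2 was inside the anti-PDL1 range and replicate 3 just below it. The log2 fold change in BTZ+anti-PDL1 against anti-PDL1 was 0.12 ± 0.115 (95% interval -0.14 to 0.38, edgeR adjusted p = 0.91) and was -0.01 without that replicate.

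Pdia6 (ENSMUSG00000020571, chromosome 12, 17266545 to 17284770), a disulfide isomerase that also acts on IRE1, had 832, 846 and 809 CPM in BTZ+anti-PDL1, 728, 714 and 757 CPM in anti-PDL1, and 818, 812 and 799 CPM in isotype tumours. All anti-PDL1 tumours were below all the others, and BTZ+anti-PDL1 overlapped isotype. Its log2 fold change was 0.18 ± 0.0602 in BTZ+anti-PDL1 against anti-PDL1 (1.13-fold, 95% interval 1.03 to 1.24, edgeR adjusted p = 0.819) and -0.14 ± 0.0602 in anti-PDL1 against isotype (0.91-fold, adjusted p = 0.763). It was the 1 gene of the arm without overlap in the first of these, where 7.33% of all genes were higher without overlap. In the second, Edem1, which delivers misfolded glycoproteins for degradation, and the co-chaperone Dnajb11 were also lower without overlap, which makes 3 of 8 genes of the arm, where 6.61% of all genes were lower without overlap.

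Dnajb11 had 107, 103 and 93.1 CPM in BTZ+anti-PDL1, 94.6, 91.4 and 91.5 CPM in anti-PDL1, and 94.7, 99.9 and 104 CPM in isotype tumours. Edem1 had 151, 156 and 145 CPM in BTZ+anti-PDL1, 145, 144 and 146 CPM in anti-PDL1, and 155, 146 and 165 CPM in isotype tumours. For both, anti-PDL1 had the lowest mean and the smallest spread, at log2 fold changes of -0.10 ± 0.0688 and -0.10 ± 0.0632 against isotype (edgeR adjusted p = 0.819 and 0.807). Syvn1, the ubiquitin ligase of ER-associated degradation, had 87.0, 102 and 98.3 CPM in BTZ+anti-PDL1, 103, 104 and 95.0 CPM in anti-PDL1, and 97.2, 93.6 and 73.8 CPM in isotype tumours. Its log2 fold change of 0.19 ± 0.107 in anti-PDL1 against isotype (edgeR adjusted p = 0.776) was 0.08 without isotype replicate 3, and the gene shares exon bases with Mrpl49 on the opposite strand (31.8 FPKM). The co-chaperones Dnajb9 and Dnajc3 ran from 32.3 to 53.6 CPM and from 130.1 to 165 CPM over the 9 tumours, with overlap between all groups. In BTZ+anti-PDL1 against anti-PDL1, Dnajb11 had a log2 fold change of 0.13 ± 0.0688 and Edem1 one of 0.05 ± 0.0632 (edgeR adjusted p = 0.886 and 0.938). Against isotype the BTZ+anti-PDL1 values were 0.12 ± 0.107 for Syvn1, -0.05 ± 0.0632 for Edem1 and -0.13 ± 0.174 for Dnajb9 (edgeR adjusted p = 0.775 to 0.852).

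Most genes of the ATF6 arm had lower values in anti-PDL1 tumours than in either of the other groups, and none passed the edgeR test. Of 13 genes, 12 were above 0 in BTZ+anti-PDL1 against anti-PDL1, with a median log2 fold change of 0.13 (range -0.01 to 0.37), and 4 were higher without overlap, where 50.8% of all genes were above 0 and 7.33% higher without overlap. In anti-PDL1 against isotype, 12 of 13 were below 0, with a median of -0.12 (range -0.45 to 0.02), and 2 were lower without overlap, where 51% of all genes were below 0 and 6.61% lower without overlap. BTZ+anti-PDL1 against isotype had 8 of 13 below 0 with a median of -0.03 (range -0.22 to 0.14, 50.3% of all genes below 0) and 1 gene, Pdia3, higher without overlap (6.96% of all genes). These first 2 comparisons both contain the anti-PDL1 tumours, so their opposite signs are not separate observations. Without the muscle-richest tumours 10 of 13 were above 0 in the first (median 0.08), 9 of 13 below 0 in the second (median -0.08) and 5 of 13 below 0 in the third (median 0.02). Without isotype replicate 3 the median of the third was 0.06, and without isotype replicate 1 it was -0.08, with 10 of 13 below 0.

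Hspa5 (ENSMUSG00000026864, chromosome 2, 34771970 to 34777547), the chaperone most used as a marker of this response, had 1093, 623 and 964 CPM in BTZ+anti-PDL1, 491, 976 and 623 CPM in anti-PDL1, and 965, 685 and 1206 CPM in isotype tumours. Each group held a tumour with a high and one with a low value, and the ranges of all groups overlapped. The mean was 893 ± 243 CPM in BTZ+anti-PDL1, 697 ± 251 CPM in anti-PDL1 and 952 ± 261 CPM in isotype tumours (SD, n = 3 each). For Hspa5 the log2 fold change was 0.36 ± 0.324 in BTZ+anti-PDL1 against anti-PDL1, with a 95% interval from 0.76-fold to 2.16-fold (edgeR adjusted p = 0.909), and -0.01 without the muscle-richest tumours. It was -0.09 ± 0.324 in BTZ+anti-PDL1 against isotype and -0.45 ± 0.324 in anti-PDL1 against isotype (edgeR adjusted p = 0.948 and 0.825). A 2-fold increase of Hspa5 was therefore inside the interval, unlike for Atf4 and Ddit3.

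Pdia3 (ENSMUSG00000027248, chromosome 2, 121413775 to 121438687), a disulfide isomerase that works with calreticulin and calnexin, had 835, 811 and 845 CPM in BTZ+anti-PDL1, 702, 763 and 754 CPM in anti-PDL1, and 774, 739.9 and 748 CPM in isotype tumours. It was the ATF6-arm gene with the smallest p in both comparisons with BTZ+anti-PDL1, every tumour of that group being above all 6 others. Its log2 fold change was 0.17 ± 0.0634 against anti-PDL1 (1.12-fold, 95% interval 1.02 to 1.24, edgeR adjusted p = 0.849) and 0.14 ± 0.0634 against isotype (adjusted p = 0.581). Pdia4, another isomerase, had 411, 386 and 397 CPM in BTZ+anti-PDL1, 365, 362 and 377 CPM in anti-PDL1, and 360.3, 409 and 419.6 CPM in isotype tumours. BTZ+anti-PDL1 was above anti-PDL1 without overlap but inside the isotype range, at a log2 fold change of 0.11 ± 0.0718 against anti-PDL1 (edgeR adjusted p = 0.886), and anti-PDL1 against isotype had -0.11 ± 0.0718 (adjusted p = 0.82).

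Creld2, a secreted ER chaperone, had 68.6, 63.2 and 56.8 CPM in BTZ+anti-PDL1, 43.8, 49.5 and 52.4 CPM in anti-PDL1, and 52.2, 58.1 and 85.4 CPM in isotype tumours. Sdf2l1, a component of the BiP cycle, had 49.2, 42.6 and 36.0 CPM in BTZ+anti-PDL1, 35.7, 35.7 and 31.5 CPM in anti-PDL1, and 37.9, 37.3 and 55.1 CPM in isotype tumours. In both genes isotype replicate 3 was the highest tumour. The log2 fold change in BTZ+anti-PDL1 against anti-PDL1 was 0.37 ± 0.172 for Creld2 (edgeR adjusted p = 0.861) and 0.31 ± 0.166 for Sdf2l1 (adjusted p = 0.877). In anti-PDL1 against isotype the values were -0.43 ± 0.172 and -0.34 ± 0.166 (edgeR adjusted p = 0.763 for both), and -0.18 and -0.13 without isotype replicate 3.

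Manf, a secreted protein that stabilises BiP clients, had 170.4, 130.0 and 171 CPM in BTZ+anti-PDL1, 151, 116 and 164 CPM in anti-PDL1, and 166, 203 and 181 CPM in isotype tumours. Anti-PDL1 was below isotype without overlap, at a log2 fold change of -0.35 ± 0.151 (edgeR adjusted p = 0.763), and the count may hold reads of Rbm15b (15.7 FPKM) and Dcaf1 (10.9 FPKM), which share exon bases with it. Herpud1, an adaptor of ER-associated degradation whose window holds both ERSE-II and CARE, had 52.9, 38.7 and 38.4 CPM in BTZ+anti-PDL1, 37.9, 43.5 and 44.3 CPM in anti-PDL1, and 55.7, 37.0 and 54.2 CPM in isotype tumours. All 3 groups overlapped for Herpud1. Sel1l, the partner of the Syvn1 ligase, had 73.0 CPM in isotype replicate 2 and 102 to 137 CPM in the other 8 tumours.

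The sensor gene Atf6 had 135, 157 and 158 CPM in BTZ+anti-PDL1, 153, 132 and 167 CPM in anti-PDL1, and 168, 181 and 143 CPM in isotype tumours. Canx, the membrane-bound lectin chaperone, had 874, 785 and 806 CPM in BTZ+anti-PDL1, 755, 727 and 799 CPM in anti-PDL1, and 715, 802 and 727 CPM in isotype tumours, at a log2 fold change of 0.14 ± 0.0766 in BTZ+anti-PDL1 against isotype (edgeR adjusted p = 0.645). In the same comparison Atf6 had -0.13 ± 0.114 and Manf -0.22 ± 0.151 (edgeR adjusted p = 0.763 and 0.691). The groups overlapped for these 3 genes. Hsp90b1 ran from 1302 to 1681 CPM, Calr from 858 to 1128 CPM and Hyou1, a nucleotide exchange factor of BiP, from 253 to 352 CPM over the 9 tumours. In the plot of fold changes by arm, 12 of 13 ATF6 points and 6 of 19 ATF4 points lie above 0 in BTZ+anti-PDL1 against anti-PDL1.

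**Figure D3:**
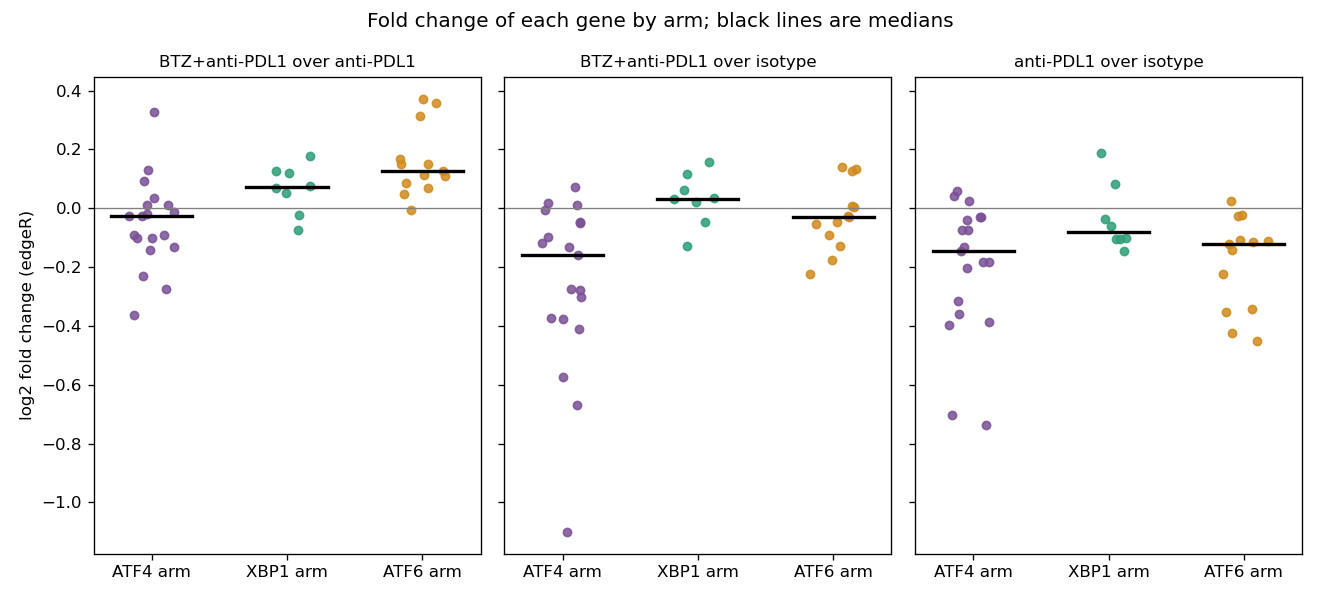
Log2 fold change (edgeR) of each of the 40 genes (points) by arm, with arm medians (black lines), in the 3 comparisons. In BTZ+anti-PDL1 against isotype the ATF4 arm has a median of -0.16 and reaches -1.10, while the XBP1 and ATF6 medians are 0.03 and -0.03, and no point passed the test.

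Other genes of the same pathways were read from further lists. Of 26 tested other genes of the integrated stress response, 22 were below 0 in BTZ+anti-PDL1 against isotype (median -0.22, range -1.51 to 0.32), 19 in BTZ+anti-PDL1 against anti-PDL1 (median -0.08) and 21 in anti-PDL1 against isotype (median -0.09). None passed in edgeR. At an unadjusted edgeR p under 0.05 the counts lower were 8, 3 and 4, beside 4.18%, 2.67% and 3.34% of all genes. The counts higher were 1, 1 and 0, beside 4.42%, 3.15% and 3.01%. DESeq2 called 2, 0 and 0 of them, beside 0.768%, 0.47% and 0.104% of all genes. Of the 26, 9 were lower without overlap in BTZ+anti-PDL1 against isotype, where 6.03% of all genes were. In BTZ+anti-PDL1 against anti-PDL1, 3 were lower and 2 higher without overlap, beside 6.99% and 7.33% of all genes. The largest fold changes belonged to Stc2 and Vldlr, which are also known as hypoxia-induced genes. Stc2, a secreted glycoprotein, had 1.10, 0.694 and 1.09 CPM in BTZ+anti-PDL1, 1.55, 2.38 and 2.25 CPM in anti-PDL1, and 1.73, 4.26 and 2.25 CPM in isotype tumours. BTZ+anti-PDL1 was below both other groups without overlap, at a log2 fold change of -1.51 ± 0.388 against isotype (edgeR adjusted p = 0.418) and -1.09 ± 0.388 against anti-PDL1 (adjusted p = 0.819).

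Vldlr, a lipoprotein receptor, had 5.81, 2.72 and 5.88 CPM in BTZ+anti-PDL1, 8.50, 12.0 and 8.80 CPM in anti-PDL1, and 7.71, 13.9 and 13.8 CPM in isotype tumours. It too was lowest in all BTZ+anti-PDL1 tumours, with log2 fold changes of -1.29 ± 0.329 against isotype (edgeR adjusted p = 0.42) and -1.02 ± 0.328 against anti-PDL1 (adjusted p = 0.771). The amino acid transporter genes Slc3a2 and Slc1a5 were lower in anti-PDL1 than in isotype tumours without overlap, at -0.19 ± 0.0742 and -0.17 ± 0.0654 (edgeR adjusted p = 0.763 for both).

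The aminoacyl-tRNA synthetases, which charge tRNAs and include known ATF4 targets, were below 0 for 17 of 20 in BTZ+anti-PDL1 against isotype (median -0.07, 7 lower without overlap, where 6.03% of all genes were), 13 of 20 in BTZ+anti-PDL1 against anti-PDL1 (median -0.01) and 18 of 20 in anti-PDL1 against isotype (median -0.06). None passed in edgeR or in DESeq2, and at an unadjusted edgeR p under 0.05 the counts lower were 3, 0 and 1, beside 4.18%, 2.67% and 3.34% of all genes. Tars had 136, 140.0 and 134 CPM in BTZ+anti-PDL1, 129, 145 and 154 CPM in anti-PDL1, and 162, 158 and 158 CPM in isotype tumours, and its log2 fold change in BTZ+anti-PDL1 against isotype was -0.22 ± 0.0713 (edgeR adjusted p = 0.52). All 6 treated tumours were below the isotype tumours. Yars had -0.21 ± 0.0764 in the same comparison (edgeR adjusted p = 0.543). Yars had -0.18 ± 0.0764 and Tars -0.16 ± 0.0713 in anti-PDL1 against isotype (edgeR adjusted p = 0.763 for both). Between BTZ+anti-PDL1 and anti-PDL1, Hars had 0.10 ± 0.0604 and Iars -0.14 ± 0.101 (edgeR adjusted p = 0.886 for both), each with overlap.

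Of 39 tested other genes of the unfolded protein response and the ER, 26 were below 0 in BTZ+anti-PDL1 against isotype (median -0.05), 22 in BTZ+anti-PDL1 against anti-PDL1 and 25 in anti-PDL1 against isotype (median -0.06). None passed in edgeR or in DESeq2, and at an unadjusted edgeR p under 0.05 the counts were 3, 0 and 1 lower (4.18%, 2.67% and 3.34% of all genes) and 2, 1 and 0 higher (4.42%, 3.15% and 3.01%). The oxidases that recharge the disulfide isomerases differed in sign. Ero1l, also known as a hypoxia-induced gene, had 124, 115 and 161 CPM in BTZ+anti-PDL1 against 167, 220.4 and 231 CPM in anti-PDL1 tumours, at -0.63 ± 0.339 (edgeR adjusted p = 0.886). Ero1lb had 17.0, 16.2 and 14.1 CPM in BTZ+anti-PDL1 against 14.0, 12.0 and 12.7 CPM in anti-PDL1 tumours, at 0.29 ± 0.116 (edgeR adjusted p = 0.849). The groups did not overlap for either. Crebrf, a regulator of the response, had 0.33 ± 0.117 and Kdelr2, a retrieval receptor for ER proteins, -0.21 ± 0.0759 in BTZ+anti-PDL1 against isotype (edgeR adjusted p = 0.543 for both). In anti-PDL1 against isotype the translocon subunit Sec61b had -0.19 ± 0.0824 and the thioredoxin-domain protein Txndc11 -0.18 ± 0.0862 (edgeR adjusted p = 0.763 for both).

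Levels of the arms as a whole were summarised by a score. Each gene's log2 CPM was centred on its average over the 9 tumours, and the centred values were averaged over the arm. The ATF4 score was 0.02, -0.19 and -0.13 in BTZ+anti-PDL1, -0.19, 0.03 and 0.02 in anti-PDL1, and 0.19, 0.14 and 0.11 in isotype tumours. The XBP1 score was 0.10, 0.05 and -0.07 in BTZ+anti-PDL1, -0.01, -0.06 and -0.02 in anti-PDL1, and 0.05, -0.03 and -0.02 in isotype tumours. The ATF6 score was 0.14, -0.03 and 0.03 in BTZ+anti-PDL1, -0.18, -0.08 and -0.07 in anti-PDL1, and 0.00, -0.01 and 0.20 in isotype tumours. The ATF4 score of every treated tumour was below every isotype tumour, and the ATF6 score of every anti-PDL1 tumour was below all the others. The XBP1 score overlapped between the groups.

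Scores of other gene groups are set beside these. The hypoxia and glycolysis score was -0.34, -0.49 and -0.11 in BTZ+anti-PDL1, -0.17, 0.21 and 0.09 in anti-PDL1, and 0.33, 0.69 and -0.22 in isotype tumours. Its 17 genes summed to 4085 to 4927 CPM in BTZ+anti-PDL1, 4852 to 5722 CPM in anti-PDL1 and 4715 to 7158 CPM in isotype tumours, none of them being at 0. Of the 17, 16 were below 0 in each comparison, with medians of -0.38 in BTZ+anti-PDL1 against anti-PDL1, -0.59 in BTZ+anti-PDL1 against isotype and -0.27 in anti-PDL1 against isotype. Of all genes, 49.2%, 50.3% and 51% were below 0 in these comparisons, in that order. These shares also stand beside the sign counts of the cell type lists below. In each group the tumour with the lowest hypoxia score also had the lowest ATF4 score. It was BTZ+anti-PDL1 replicate 2 (hypoxia -0.49, ATF4 -0.19), anti-PDL1 replicate 1 (-0.17 and -0.19) and isotype replicate 3 (-0.22 and 0.11). The high ends matched only for anti-PDL1, where replicate 2 led in hypoxia (0.21) and ATF4 (0.03). Among isotype tumours replicate 2 led in hypoxia (0.69) but replicate 1 in ATF4 (0.19). With BTZ added, replicate 3 led in hypoxia (-0.11) but replicate 1 in ATF4 (0.02). Isotype replicate 3 had a lower hypoxia score yet a higher ATF4 score than every anti-PDL1 tumour. Whether the scores go together was not tested. The T cell markers were above 0 for 15 of 15 in each treated group against isotype, with medians of 0.74 for BTZ+anti-PDL1 and 0.67 for anti-PDL1. Of these, 4 and 2 were higher without overlap, beside 6.96% and 6.08% of all genes. Their sum was 8.07 CPM in isotype replicate 2, while isotype replicate 3, at 42.6 CPM, was inside the range of both treated groups.

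Of the 6 tested red blood cell genes, 6 were above 0 in BTZ+anti-PDL1 against anti-PDL1 (median 0.53). There 0 were without overlap, where 7.33% of all genes were higher without overlap. In BTZ+anti-PDL1 against isotype 6 were below 0 (median -1.06). In anti-PDL1 against isotype 6 were below 0 (median -1.73), all without overlap, where 6.61% of all genes were lower without overlap. The 7 in the table summed to 29.2 to 196 CPM in BTZ+anti-PDL1, 45.3 to 89.0 CPM in anti-PDL1 and 136 to 269 CPM in isotype tumours. All 10 endothelial genes were below 0 in each comparison, with medians of -0.36 in BTZ+anti-PDL1 against anti-PDL1, -0.55 in BTZ+anti-PDL1 against isotype and -0.24 in anti-PDL1 against isotype. They summed to 213 to 247 CPM in BTZ+anti-PDL1, 253 to 324 CPM in anti-PDL1 and 250.4 to 388 CPM in isotype tumours. No gene of these 2 lists was at 0 in all tumours.

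Against isotype, macrophage and monocyte genes were above 0 for 10 of 12 in BTZ+anti-PDL1 and 11 of 12 in anti-PDL1. Their sums were 2744 to 3879 CPM in BTZ+anti-PDL1, 3378 to 3494 CPM in anti-PDL1 and 2006 to 3639 CPM in isotype tumours. Isotype replicate 2 was the tumour at 2006 CPM, and isotype replicate 3, at 3639 CPM, was above every anti-PDL1 tumour. Against anti-PDL1, BTZ+anti-PDL1 tumours were below 0 for 7 of 7 tested neutrophil genes (median -0.86) and 8 of 11 fibroblast genes (median -0.43). Skeletal muscle genes were below 0 for 13 of 15 in BTZ+anti-PDL1 and 14 of 15 in anti-PDL1 against isotype. Isotype replicate 3 alone was at 3273 CPM. Isotype replicates 1 and 2, at 86.5 and 134 CPM, were below every anti-PDL1 tumour (195 to 1290 CPM). The part of hypoxia or of any of these cell contents in the arm differences was not tested.

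**Figure D4:**
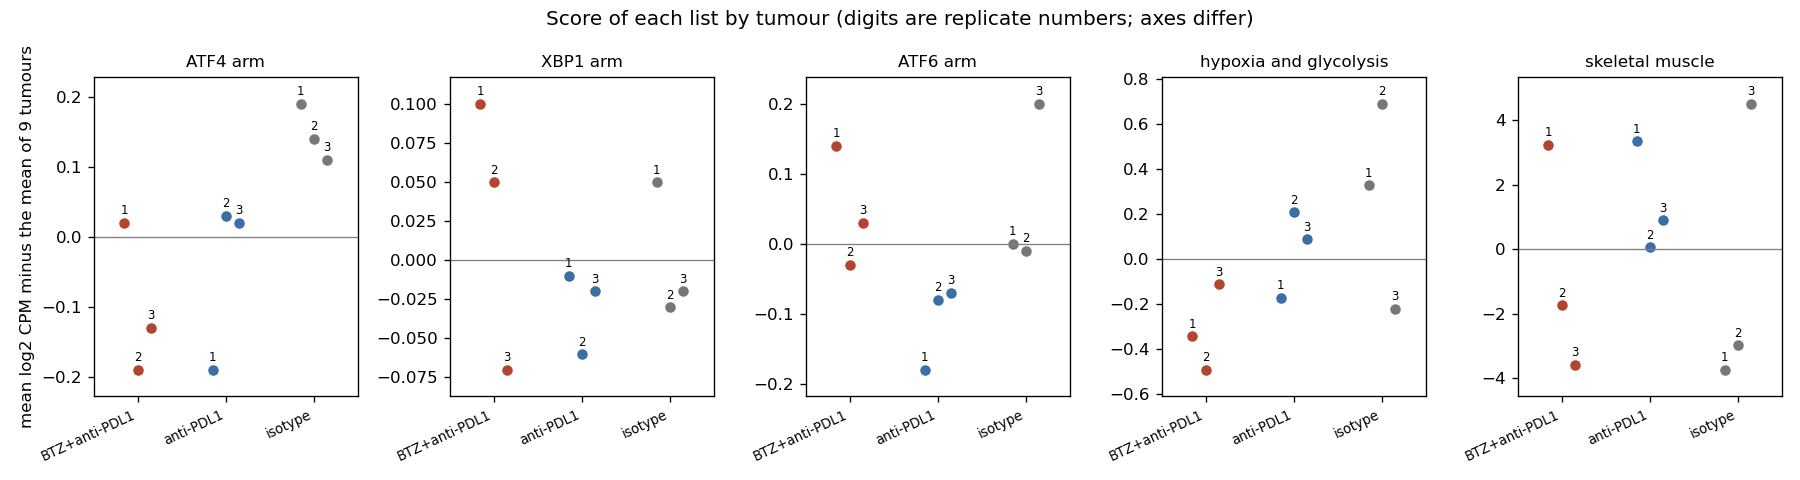
Scores (centred log2 CPM averaged over genes) of the 3 arms and of hypoxia and glycolysis and skeletal muscle genes in each tumour, for BTZ+anti-PDL1, anti-PDL1 and isotype. The ATF4 scores are -0.19 to 0.02 in BTZ+anti-PDL1, -0.19 to 0.03 in anti-PDL1 and 0.11 to 0.19 in isotype tumours, and the muscle scores span every group.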

How the data were processed

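The authors deposited 1 table with a whole-number count and an FPKM value for each gene in each of 9 tumours, per the file headers. Per the submitters' processing notes, HISAT2 2.0.4, StringTie 1.3.3b and the build mm10 were used, with no roles given. How reads were counted, on which annotation and with which strand setting is not given in the sources used here, so reads of overlapping genes cannot be told apart. The deposited FPKM equalled the count over the column total times a factor fixed for each gene (largest relative deviation 2.8e-05 over 12343 genes). Totals were 18.52 M to 21.51 M counts, which, with 3 tumours a group, sets the precision. Groups came from the treatment labels.

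The test was that of edgeR 4.0.16 under R 4.3.3 (quasi-likelihood F test, robust, TMM scaling, 1 model of 3 group means over 9 tumours). The filter filterByExpr (minimum count 10) kept 14506 genes, and p-values were adjusted over all of them by Benjamini-Hochberg, with calls under 0.05. Standard errors were derived from the fold change and its F statistic. Alternatives used DESeq2 1.42.0 and limma 3.58.1 (limma-trend on log2 of FPKM plus 1 or 0.1). Scores used a prior count of 2. The edgeR test was run on simulated data for anti-PDL1 against isotype, and the DESeq2 and limma steps were not.

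The 40 members, the arms and the other lists were chosen with earlier results of these data known. Fold changes are given for the 4 genes of each arm with the smallest p in each comparison, and for up to 2 of each further list. The exceptions, chosen after their values were seen, are Hspa5 in all comparisons, and Atf4 and Ddit3 in BTZ+anti-PDL1 against anti-PDL1, Asns and Atf3 in BTZ+anti-PDL1 against isotype, and the printed promoters. No 2 libraries agreed within sampling noise.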

Additional observations from a re-analysis of the deposited data

How the results depend on the processing

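Over 17 alternative settings of edgeR, DESeq2 and limma, the 61 named fold changes gave 1029 values, of which 1012 kept their direction and their side of the threshold, 14 reversed and 3 gained a call. The count of genes called moved with the setting, and members stayed at 0 except for the 2 with DESeq2 in BTZ+anti-PDL1 against isotype. In BTZ+anti-PDL1 against anti-PDL1 (2 genes called) it was 4 without a filter, 12 with only the 6 tumours compared, 60 with DESeq2, 0 without the muscle-richest tumours, and 1 to 7 with 1 tumour left out. The count in BTZ+anti-PDL1 against isotype (1 called) was 6 without a filter, 0 with only the 6 tumours compared, 111 with DESeq2, 3 on log2(FPKM + 1), 3 on log2(FPKM + 0.1), 0 without the muscle-richest tumours, and 0 to 20 with 1 tumour left out, the 20 without isotype replicate 3. In anti-PDL1 against isotype (2 called) it was 15 with DESeq2, 0 without the muscle-richest tumours, and 1 to 4 with 1 tumour left out. The replicate numbers showed no consistent pairing of the tumours. Of 9 same-numbered pairs, 3 had a correlation of deviations over 0.1 (range -0.434 to 0.393), and 1 of 9 tumours correlated best with its own number. These correlations run over all tested genes, muscle genes included, so they cannot show that no pairing exists. With the replicate number as a block, 1, 0 and 1 genes were called in the order above. The causes were not tested.

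The ATF4 median in BTZ+anti-PDL1 against anti-PDL1 was -0.15 without the muscle-richest tumours, and ran from -0.09 to 0.005 with 1 tumour left out. With 1 tumour left out the XBP1 median ran from 0.03 to 0.14 in that comparison and from -0.03 to 0.09 in BTZ+anti-PDL1 against isotype. Without the muscle-richest tumours, in BTZ+anti-PDL1 against anti-PDL1, Hspa5 was at -0.01, Xbp1 at -0.02 and Ddit3 at -0.19, and Atf4 was at 0.0034 on log2(FPKM + 1) and 0.0035 on log2(FPKM + 0.1). With 1 tumour left out Xbp1 ran from -0.01 to 0.21, Atf4 from -0.09 to 0.05 and Ddit3 from -0.09 to 0.11. In BTZ+anti-PDL1 against isotype, Dnajb9 ran from -0.34 to 0.03 and Hspa5 from -0.28 to 0.11. For genes near 2 CPM, such as Chac1 and Stc2, the low counts limit the precision.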
